A study of Mus musculus with 2 samples.

Results

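The collagen gene family was examined in SOX2-GFPhigh and SOX2-GFPlow cells of the newborn mouse tongue. Its members were the entries of the deposited expression table whose gene name is *Col*, a number, a and a number, and 44 of the 21628 entries met this rule. Cells came from pooled lingual epithelium of P0 (day of birth) pups of the genotype *Sox2GFP*, a reporter in which GFP fluorescence follows *Sox2*, a transcription factor gene of tongue epithelium and taste buds. Peeled epithelium was digested to single cells, which were sorted by FACS (fluorescence-activated cell sorting) into a GFPhigh and a GFPlow population of about 100000 cells, and both populations carried the reporter and received no treatment. The paper describes the GFPlow cells as a mix of epithelium and connective tissue, with mesenchymal cells likely included. RNA of each population was sequenced as 1 library, with pups pooled for both, so no difference below has a replicate check and no p-value is given. Expression is in FPKM, the fragments mapped to a gene relative to its transcript length and to all mapped fragments of the library, a measure on which levels of different genes can be set side by side.

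Collagens are extracellular proteins whose chains wind into a triple helix, for which each chain repeats glycine followed by a pair of other residues (Gly-X-Y). Fibrillar collagens form the fibers of connective tissue and are made mostly by fibroblasts. Type IV collagen forms the sheet of basement membranes, and FACIT collagens (fibril-associated collagens with interrupted triple helices) sit on the surface of fibers. In stratified epithelium, basal keratinocytes make collagen XVII, a transmembrane collagen of hemidesmosomes, and collagen VII, the anchoring fibril that ties the basement membrane to the tissue beneath. Members were grouped by these structures into fibrillar (11 genes), basement membrane network (6), other network (3), FACIT and related (9), transmembrane (4), beaded filament and related (7), multiplexin (2) and anchoring fibril (1) classes, with *Col26a1* unclassified.

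The classes differ in the repeat itself. In the reading frames of the annotated transcripts, the longest uninterrupted Gly-X-Y run was 337 to 344 triplets in 9 of the 11 fibrillar genes, 216 in *Col24a1* and 217 in *Col27a1*. In the other 33 genes it was 23 to 113 triplets. Triplets were also summed over all runs of 6 or more, leaving out shorter runs. The 6 type IV genes had long but broken helices, with 421 to 444 triplets by this count and no run over 66. By the same count *Col7a1* had the most triplets, 461, with a longest run of 75. Its transcript has 119 exons in all.

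The type IV genes lie in head-to-head pairs, and this arrangement is shown by the sequence around the starts of *Col4a1* and *Col4a2*, whose annotated first exons overlap by 22 bases on opposite strands. The 30 bases are chr8:11312801-11312830, forward strand, from the RefSeq sequence of GRCm38.p6 (mm10). Capitals mark the bases from the *Col4a2* start, at 11312805 and read forward, to the *Col4a1* start, at 11312826 and read in reverse.
Col4a1/Col4a2 start: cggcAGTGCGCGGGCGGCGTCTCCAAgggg

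Upstream sequences of 4 members are shown because these genes span the range of results below: *Col3a1*, the fibrillar gene of highest FPKM, *Col11a1*, the gene of largest ratio, *Col5a3*, whose ratio was far from those of the other type V chains, and *Col7a1*, the enriched gene of smallest ratio. Each is the 250 bases before the gene start in RefSeq (GRCm38.p6), read 5′ to 3′ on the strand of the gene, and none overlaps an annotated exon. The *Col3a1* bases are chr1:45311288-45311537 (forward), the *Col11a1* bases chr3:114030290-114030539 (forward), the *Col5a3* bases chr9:20815068-20815317 (reverse) and the *Col7a1* bases chr9:108953336-108953585 (forward). Capitals mark 4 motifs, TATAAA of some core promoters, CCAAT of many upstream regions, GGGCGG, the letters of a GC box, or AACAAT, those of a SOX-type motif. Both strands were searched, so a match on the other strand appears as its reverse complement.
Col3a1: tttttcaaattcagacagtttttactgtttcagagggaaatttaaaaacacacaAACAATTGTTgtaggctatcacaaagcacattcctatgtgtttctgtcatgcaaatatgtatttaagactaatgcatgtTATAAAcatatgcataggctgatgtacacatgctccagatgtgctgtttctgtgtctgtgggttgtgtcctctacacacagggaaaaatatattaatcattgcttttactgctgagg
Col11a1: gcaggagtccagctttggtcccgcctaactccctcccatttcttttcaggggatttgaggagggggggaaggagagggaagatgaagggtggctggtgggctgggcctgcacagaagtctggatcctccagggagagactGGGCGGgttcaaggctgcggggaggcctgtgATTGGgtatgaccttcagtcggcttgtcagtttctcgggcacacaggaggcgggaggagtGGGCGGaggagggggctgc
Col5a3: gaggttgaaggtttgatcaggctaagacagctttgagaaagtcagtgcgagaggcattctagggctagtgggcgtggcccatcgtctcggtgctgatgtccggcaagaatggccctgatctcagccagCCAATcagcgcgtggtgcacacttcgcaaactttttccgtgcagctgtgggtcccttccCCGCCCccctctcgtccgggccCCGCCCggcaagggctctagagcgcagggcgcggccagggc
Col7a1: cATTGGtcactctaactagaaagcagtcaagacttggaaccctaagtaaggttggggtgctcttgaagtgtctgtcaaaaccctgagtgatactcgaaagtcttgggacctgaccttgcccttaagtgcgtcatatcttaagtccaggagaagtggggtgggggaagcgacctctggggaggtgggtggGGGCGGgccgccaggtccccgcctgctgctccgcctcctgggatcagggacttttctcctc

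In these windows *Col3a1* held TATAAA and a pair of overlapping AACAAT matches, 1 on each strand, but neither CCAAT nor GGGCGG. The other 3 windows held CCAAT together with GGGCGG, but neither of the AT-rich motifs. Relative to the gene start, the *Col3a1* TATAAA match began at -117 and the *Col7a1* CCAAT match at -249. Whether any match acts in a promoter was not tested. RefSeq windows were matched for 35 of the 44 genes (38 windows, since some genes have more than 1 start). GGGCGG was found in 57.9% of the collagen windows and in 63.2% of the 19 windows of collagen genes enriched in GFPlow cells, against 32.7% of all 32851 promoter windows of the same length. The shares for CCAAT were 34.2%, 42.1% and 33.8%, for TATAAA 13.2%, 5.26% and 12.4%, and for AACAAT 2.63%, 5.26% and 9.42%. The only collagen window with AACAAT was that of *Col3a1*.

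The populations were checked against their labels first. *Sox2* was 112.3 FPKM in GFPhigh and 59.02 FPKM in GFPlow cells, 1.90-fold higher in GFPhigh cells. Keratins of basal keratinocytes were abundant in both, with *Krt5* at 9667 and 10422 FPKM. All 6 basal keratinocyte markers passed 5 FPKM in both populations.

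Enrichment in 1 population was counted where a gene reached 5 FPKM there and exceeded its FPKM in the other population by 1.5-fold or more. By this rule, 21 collagen genes were enriched in GFPlow cells and 0 in GFPhigh cells, beside 4.44% and 4.72% of the 21590 analysed entries with a number in both populations. The 21 genes are 47.7% of the family. Of the 44 genes, 28 had 5 FPKM or more in at least 1 population, and the 21 are 75.0% of these, beside 8.90% (GFPlow) and 9.48% (GFPhigh) of the 10760 entries at that level. The median log2(GFPhigh/GFPlow) of the 28 genes was -1.46, or 2.74-fold higher in GFPlow cells, beside -0.04 over the 10760 entries. The 28 include genes that reached 5 FPKM only in GFPlow cells, and no median was taken without them. Of the 28 genes, 26 were higher in GFPlow cells, and *Col6a2* and *Col14a1* were higher in GFPhigh cells, both under 1.5-fold. Of the 10760 entries, 5960 were higher in GFPlow and 4794 in GFPhigh cells. In bulk RNA, a lower value can come from fewer cells that express a gene or from less RNA per cell, and these cannot be told apart.

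**Figure D1:**
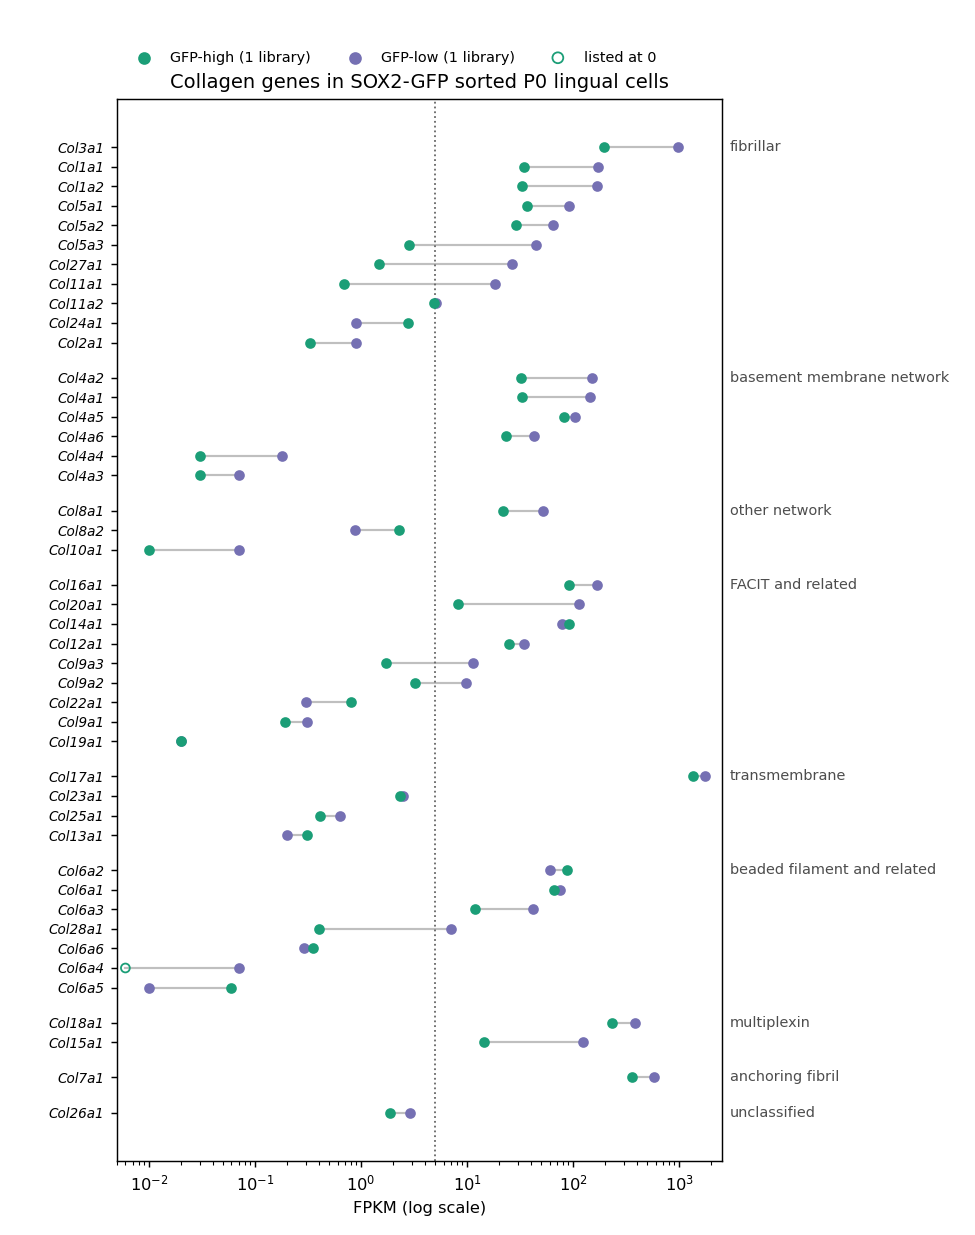
Each row is 1 of the 44 collagen genes, grouped by class, with FPKM on a log axis in GFPhigh (green) and GFPlow (violet) cells, 1 library each, and a dotted line at 5 FPKM. The open circle is *Col6a4*, listed at 0 in GFPhigh cells. Most of the 28 genes that reach 5 FPKM have the violet point to the right, and *Col17a1* is at the far right in both populations.

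Differences in size were also uneven among the 28 genes. Enrichment in GFPlow cells was at least 2-fold for 17 (60.7%), at least 4-fold for 12 (42.9%) and at least 8-fold for 6 (21.4%), beside 4.34%, 1.68% and 0.864% of the entries at 5 FPKM. Of the 6, *Col11a1*, *Col27a1*, *Col28a1* and *Col5a3* were under 5 FPKM in GFPhigh cells, as were *Col9a2*, *Col9a3* and *Col11a2* of the 28. These genes were among the 28 only through their GFPlow values. With 5 FPKM required in each population, 15 collagen genes were enriched in GFPlow cells. No share of all entries is given under that rule, so these 15 have no background beside them. Nearest to the thresholds, *Col7a1* (1.62-fold) and *Col18a1* (1.64-fold) were just past 1.5-fold, and *Col12a1* (1.37-fold) was the nearest short of it on the GFPlow side. On the GFPhigh side *Col6a2* (1.44-fold) was the nearest. On the FPKM side, *Col11a2* had 5.08 FPKM and *Col26a1*, the highest of those not reaching 5, had 2.88.

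**Figure D2:**
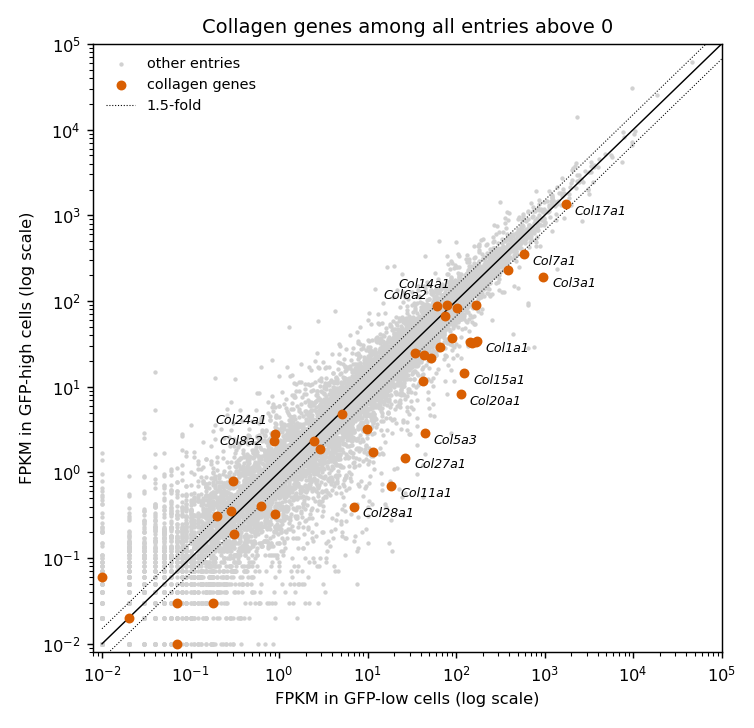
FPKM of every entry above 0 in both populations, GFPlow on the x axis and GFPhigh on the y axis, both log scales, with collagen genes in orange, equality as the solid line and 1.5-fold as dotted lines. Collagen genes at high FPKM lie near or below the solid line, and *Col5a3*, *Col27a1*, *Col11a1* and *Col28a1* lie farthest below it.

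Fibrillar collagens had the lowest class median among classes with more than 1 gene at 5 FPKM, -2.32 on the log2(GFPhigh/GFPlow) scale. Of 11 genes, 9 reached 5 FPKM, 8 were enriched in GFPlow cells and 1 was not. *Col11a1*, *Col27a1*, *Col5a3* and *Col11a2* were among the 9 only through their GFPlow values. *Col3a1*, the chain of the homotrimeric type III collagen of extensible tissue (chr1:45311538-45349706, forward), had 193.26 FPKM in GFPhigh and 966.16 FPKM in GFPlow cells. *Col1a1* (chr11:94936224-94953042, forward), which encodes the major chain of type I collagen, had 34.41 and 171.83 FPKM. Its partner chain *Col1a2* (chr6:4504814-4541544, forward) had 33.21 and 166.70 FPKM. These 3 genes thus had nearly the same ratio, 5.0-fold, 4.99-fold and 5.02-fold higher in GFPlow cells, although *Col3a1* was 5.62 times the level of *Col1a1* in both populations. *Col1a1* and *Col1a2* were also close in level, with a ratio of 1.04 in GFPhigh and 1.03 in GFPlow cells.

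The type V and XI chains, which are minor components that set the diameter of fibers, fell into separate ranges. *Col5a1* (chr2:27886425-28039514, forward) had 36.59 FPKM in GFPhigh and 90.43 FPKM in GFPlow cells, a 2.47-fold difference. *Col5a2* (chr1:45374321-45503282, reverse) had 29.08 and 65.03 FPKM, a 2.24-fold difference. *Col5a3*, another type V chain, of more restricted expression (chr9:20770050-20815067, reverse), had 2.85 and 44.45 FPKM, a 15.6-fold difference. *Col5a3* was thus somewhat below the other type V chains in GFPlow cells and far below them in GFPhigh cells. *Col11a1*, best known from cartilage (chr3:114030540-114220718, forward), had 0.69 and 18.44 FPKM, a 26.7-fold difference and the largest ratio of the family. *Col11a2*, its partner chain (chr17:34039437-34066685, forward), had 4.87 and 5.08 FPKM and was not enriched in either population. *Col27a1*, a fibrillar collagen with a shorter helix (chr4:63214004-63334991, forward), had 1.49 and 26.72 FPKM, a 17.9-fold difference. Below 5 FPKM, *Col24a1* was the one fibrillar gene with the higher value in GFPhigh cells, 2.78 against 0.89 FPKM. *Col2a1*, the main collagen of cartilage, had 0.33 and 0.90 FPKM.

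**Figure D3:**
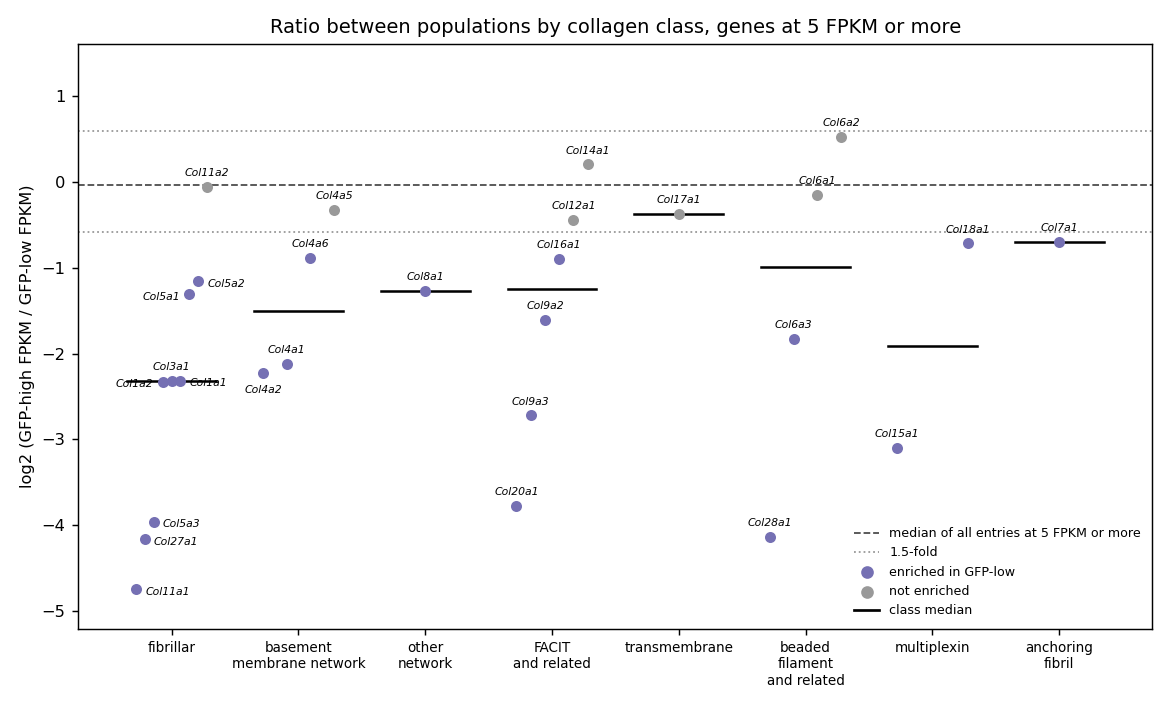
log2 of GFPhigh FPKM over GFPlow FPKM for the 28 collagen genes at 5 FPKM or more, by class, with genes enriched in GFPlow cells in violet, the others in grey, class medians as bars, the median of all entries at 5 FPKM as a dashed line (-0.04) and 1.5-fold as dotted lines. No gene lies above the upper dotted line, and the fibrillar class has the lowest median of the classes with several genes.

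Basement membrane collagens split by gene pair. Of 6 type IV genes, 4 reached 5 FPKM, 3 were enriched in GFPlow cells, and the class median was -1.50. *Col4a1* (chr8:11198423-11312826, reverse), which with *Col4a2* makes the network of nearly all basement membranes, had 33.16 FPKM in GFPhigh and 143.69 FPKM in GFPlow cells, a 4.33-fold difference. *Col4a2* (chr8:11312805-11449287, forward) had 32.21 and 150.67 FPKM, a 4.68-fold difference. The level of *Col4a1* over that of *Col4a2*, which start within the bases printed above, was 1.03 in GFPhigh and 0.954 in GFPlow cells. The second pair, *Col4a5* and *Col4a6*, encodes chains found in basement membranes of skin and smooth muscle, and the gap between the genes is 1308 bases. *Col4a5* (chrX:141475385-141689234, forward) had 82.03 and 103.09 FPKM, 1.26-fold and not enriched. *Col4a6* (chrX:141165403-141474076, reverse) had 42.94 FPKM in GFPlow and 23.23 FPKM in GFPhigh cells, 1.85-fold higher in GFPlow cells. The highest type IV gene was therefore *Col4a5* in GFPhigh cells and *Col4a2* in GFPlow cells. The third pair, *Col4a3* and *Col4a4*, known from kidney glomeruli, was at 0.03 FPKM in GFPhigh cells for both genes, and at 0.07 and 0.18 FPKM in GFPlow cells. Their starts are 71 bases apart.

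The hemidesmosome and anchoring fibril collagens were abundant in both populations and differed by less than 2-fold. *Col17a1*, the collagen gene of highest FPKM in both populations (chr19:47646344-47692094, reverse) had 1338.93 FPKM in GFPhigh and 1739.62 FPKM in GFPlow cells, a 1.30-fold difference that was not counted as enrichment. It ranked 71 and 48 among the 21590 entries in GFPhigh and GFPlow cells. *Col7a1* (chr9:108953586-108984875, forward) had 355.96 and 578.11 FPKM, 1.62-fold, with ranks of 379 and 183. The ranks of *Col3a1*, 815 in GFPhigh and 92 in GFPlow cells, were farther apart. The other 3 transmembrane collagens were low in both populations. *Col23a1* had 2.35 and 2.48 FPKM, *Col25a1* 0.41 and 0.63 FPKM, and *Col13a1* 0.31 and 0.20 FPKM.

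The multiplexins, basement membrane proteoglycans with a helix broken many times, were both enriched in GFPlow cells. *Col18a1* (chr10:77052178-77166548, reverse), the source of endostatin, had 232.60 FPKM in GFPhigh and 382.21 FPKM in GFPlow cells, 1.64-fold. *Col15a1* (chr4:47208161-47313167, forward), found where basement membranes meet the matrix of muscle, vessels and nerve, had 14.48 and 124.36 FPKM, 8.59-fold. The level of *Col18a1* was higher than that of *Col15a1* in both populations.

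Of 9 FACIT and related genes, 6 reached 5 FPKM and 4 were enriched in GFPlow cells, with a class median of -1.25. *Col9a2* and *Col9a3* were among the 6 only through their GFPlow values, and no class median was taken without them. *Col16a1* (chr4:130047840-130099283, forward), found near basement membranes and small fibrils, had 90.79 FPKM in GFPhigh and 169.05 FPKM in GFPlow cells, 1.86-fold. *Col20a1* (chr2:180986535-181018363, forward) had 8.25 and 112.61 FPKM, 13.6-fold, the largest ratio of the class. The chains of type IX collagen, a partner of cartilage fibers, were low. *Col9a2* had 3.20 and 9.75 FPKM (3.05-fold), and *Col9a3* had 1.73 and 11.39 FPKM (6.58-fold). *Col9a1*, the third chain of that trimer, had 0.19 and 0.31 FPKM, so the 3 chains were not at like levels in either population. Reads of *Col9a3* could overlap those of *Tcfl5* on the opposite strand over 6.07% of its exons. *Col12a1* and *Col14a1*, related FACITs of dense connective tissue, were not enriched. *Col12a1* had 25.02 and 34.24 FPKM, and *Col14a1* had 91.02 FPKM in GFPhigh and 79.24 FPKM in GFPlow cells, 1.15-fold higher in GFPhigh cells.

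The beaded filament class had genes on both sides. *Col6a1* (chr10:76708792-76726168, reverse), a chain of the common type VI trimer, had 66.60 FPKM in GFPhigh and 74.37 FPKM in GFPlow cells. *Col6a2* (chr10:76595762-76623630, reverse) had 86.78 and 60.39 FPKM and was 1.44-fold higher in GFPhigh cells, the highest ratio of the 28 genes in that direction. *Col6a3* (chr1:90765923-90843971, reverse), the third chain of the trimer, had 11.79 and 41.92 FPKM and was 3.56-fold higher in GFPlow cells. The ratio of *Col6a1* to *Col6a2* was therefore 0.767 in GFPhigh and 1.23 in GFPlow cells, and that of *Col6a3* to *Col6a1* was 0.177 and 0.564. *Col28a1* (chr6:7997808-8192617, reverse), a related collagen known from the peripheral nerve, had 0.40 and 7.01 FPKM, 17.5-fold. *Col6a4*, *Col6a5* and *Col6a6*, alternative type VI chains, had at most 0.35 FPKM in either population, and *Col6a4* was listed at 0 in GFPhigh cells and had 0.07 FPKM in GFPlow cells. The remaining network class had 1 gene at 5 FPKM, *Col8a1* (chr16:57624258-57754737, reverse), a short-chain collagen of vessels and corneal membranes, with 21.58 and 52.01 FPKM (2.41-fold). Its partner chain *Col8a2* had 2.30 and 0.87 FPKM, and *Col10a1* of hypertrophic cartilage had 0.01 and 0.07 FPKM.

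The proportions of the other pairs of chains were compared in the same way. The ratio of *Col5a1* to *Col5a2* was 1.26 in GFPhigh and 1.39 in GFPlow cells. That of *Col4a5* to *Col4a6* was 3.53 and 2.40, and that of *Col9a3* to *Col9a2* was 0.541 and 1.17. Closeness on the chromosome did not go with like ratios in every pair. *Col3a1* and *Col5a2* lie tail to tail with 24614 bases between them and were 5.0-fold and 2.24-fold higher in GFPlow cells. *Col6a2* and *Col6a1*, neighbors on the same strand, differed from each other in direction.

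The 16 genes that did not reach 5 FPKM were below 1 FPKM in both populations in 12 cases and had a highest value between 1 and 5 FPKM in 4. Of the 16, 9 had the higher value in GFPlow cells, 6 in GFPhigh cells, and *Col19a1* had 0.02 FPKM in both. A ratio of at least 1.5 was seen for 7 toward GFPlow and 5 toward GFPhigh cells, with none computed for *Col6a4*. The 5 were *Col24a1*, *Col8a2*, *Col22a1* (0.80 and 0.30 FPKM), *Col13a1* and *Col6a5* (0.06 and 0.01 FPKM). At the approximate depths found from the FPKM steps, about 27000000 reads in the GFPhigh and 34000000 in the GFPlow library, the *Col6a5* values correspond to about 15 and 3 reads, and those of *Col24a1* to about 557 and 225 reads.

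As a share of the summed FPKM of all entries, collagen genes made up 0.268% in GFPhigh and 0.548% in GFPlow cells, with sums of 2868 and 5482 FPKM. *Col17a1* and *Col7a1* together held 59.1% of the collagen sum in GFPhigh and 42.3% in GFPlow cells. Fibrillar genes held 11.8% and 28.4%, and *Col3a1* alone 6.74% and 17.6%. The fibrillar sum was 4.58-fold higher in GFPlow cells and the type IV sum 2.58-fold, while the transmembrane sum differed by 1.30-fold and the beaded filament sum by 1.11-fold. FACIT genes kept nearly the same share, 7.71% and 7.61%.

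**Figure D4:**
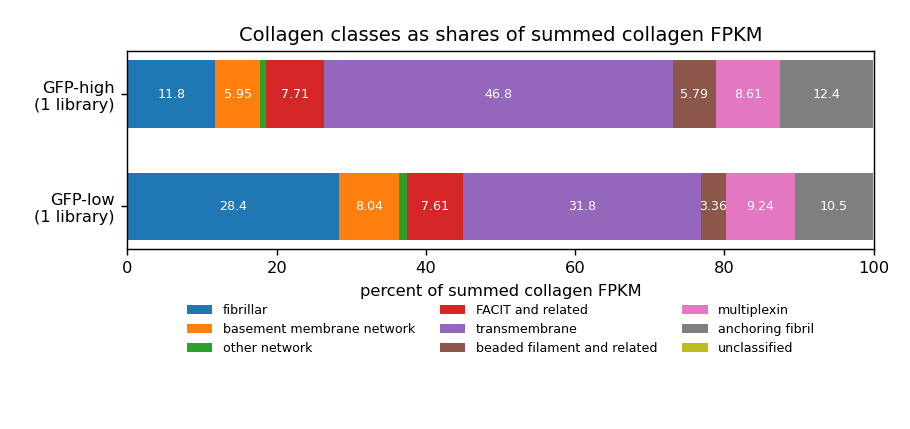
Horizontal bars show the percent of the summed collagen FPKM held by each class in GFPhigh and GFPlow cells, 1 library each, and shares above 3% are printed in the bars. The fibrillar share is 11.8% in GFPhigh and 28.4% in GFPlow cells, and the transmembrane share, nearly all *Col17a1*, is 46.8% and 31.8%.

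Genes that make, process and bind collagen were compared by the same rule, in 7 lists of 52 genes. Of these, 37 reached 5 FPKM, 10 were enriched in GFPlow cells, 0 in GFPhigh cells and 27 in neither, beside the 8.90% and 9.48% given above for all entries at that level. The enzymes and chaperones of the endoplasmic reticulum differed little. Of the prolyl hydroxylase list, which includes the partners of these enzymes, 9 of 10 reached 5 FPKM with a median log2 ratio of -0.16. *Leprel2* (prolyl 3-hydroxylase 3) was the one enriched, with 14.39 FPKM in GFPhigh and 36.52 FPKM in GFPlow cells. Of 4 lysyl hydroxylases and glycosyltransferases at 5 FPKM, *Plod2*, which modifies lysines of the telopeptides, was enriched in GFPlow cells (9.03 and 15.29 FPKM, 1.69-fold). None of the 5 chaperone and export genes was enriched, and *Serpinh1*, the collagen chaperone HSP47, had 123.36 and 182.61 FPKM, 1.48-fold.

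Outside the cell, *Pcolce*, an enhancer of procollagen C-proteinase, had 12.37 FPKM in GFPhigh and 26.06 FPKM in GFPlow cells, and it was 1 of 2 processing genes at 5 FPKM. Of the crosslinking genes, 4 of 6 reached 5 FPKM and 3 lysyl oxidase genes were enriched in GFPlow cells. *Loxl1* had 2.68 and 5.68 FPKM, *Loxl2* 13.38 and 21.93 FPKM, and *Loxl3* 0.66 and 6.15 FPKM (9.32-fold). Of 5 receptors at 5 FPKM, the collagen-binding integrin chains *Itga1* (0.69 and 5.39 FPKM) and *Itga2* (4.98 and 16.94 FPKM) were enriched in GFPlow cells. All 8 genes of hemidesmosomes and laminin-332, the partners of collagens XVII and VII, reached 5 FPKM. Of these, 6 were enriched in neither population, and the list had a median log2 ratio of -0.40. *Itgb4*, a hemidesmosome integrin chain (424.30 and 664.08 FPKM, 1.57-fold), was enriched in GFPlow cells, near the ratio of *Col7a1*.

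Several markers of fibroblasts and of the Schwann lineage were higher in GFPlow cells, as the collagen genes were. Of 11 fibroblast markers, 6 reached 5 FPKM and 4 were enriched in GFPlow cells, among them *Dcn* (143.06 FPKM in GFPhigh and 503.68 FPKM in GFPlow cells) and *Postn* (41.59 and 435.80 FPKM). The fibroblast list summed to 248 FPKM in GFPhigh and 1022 FPKM in GFPlow cells. *Dcn* and *Postn* held most of both of these sums. Other markers of the list had the higher value in GFPhigh cells, *Thy1* with 19.64 and 16.19 FPKM and *Twist2* with 2.27 and 0.50 FPKM, and *Pdgfra* had 1.42 and 1.46 FPKM. None of the 11 was at 0. All 8 Schwann lineage markers reached 5 FPKM and 7 were enriched in GFPlow cells, with sums of 75.6 and 303 FPKM and a median log2 ratio of -5.06. *Erbb3*, the 1 marker not enriched, had 60.25 and 66.89 FPKM and held most of the GFPhigh sum. None of the 8 was at 0, and *Sox10* had 0.51 and 42.73 FPKM. Most of the enriched Schwann lineage markers reached 5 FPKM only in GFPlow cells. The part of these cells in the collagen ratios was not tested.

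By their sums, the other lists moved less or in the other direction. Of the 6 basal keratinocyte markers, 1 (*Itgb4*) was enriched in GFPlow cells, with sums of 24457 and 31213 FPKM and a median log2 ratio of -0.42. Of 8 suprabasal keratinocyte markers, 7 reached 5 FPKM and 5 were enriched in GFPhigh cells, with sums of 47749 and 13828 FPKM. Endothelial markers summed to 40.1 and 29.2 FPKM with 1 of 9 enriched, *Pecam1* in GFPhigh cells. Pericyte markers summed to 90.0 and 82.1 FPKM, chondrocyte markers to 35.6 and 28.3 FPKM, almost all from *Sox9*, and leukocyte markers (3 of 4 found in the table) to 14.8 and 16.5 FPKM, with 0 enriched in each. Of the chondrocyte markers below 5 FPKM, *Acan* (0.13 and 1.87 FPKM) and *Hapln1* (0.01 and 0.18 FPKM) were higher in GFPlow cells. *Matn1* (0.04 and 0.02 FPKM) and *Comp* (0.42 and 0.38 FPKM) were higher in GFPhigh cells. Skeletal muscle markers summed to 22.1 and 20.1 FPKM with *Tnnt3* enriched in GFPhigh cells. Melanocyte markers summed to 1.36 and 2.67 FPKM, none reached 5 FPKM, *Tyr* was listed at 0 in both populations and *Mlana* in GFPhigh cells. Among them, *Tyrp1* (0.04 and 0.88 FPKM) and *Pmel* (1.09 and 0.73 FPKM) differed in opposite directions.

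**Figure D5:**
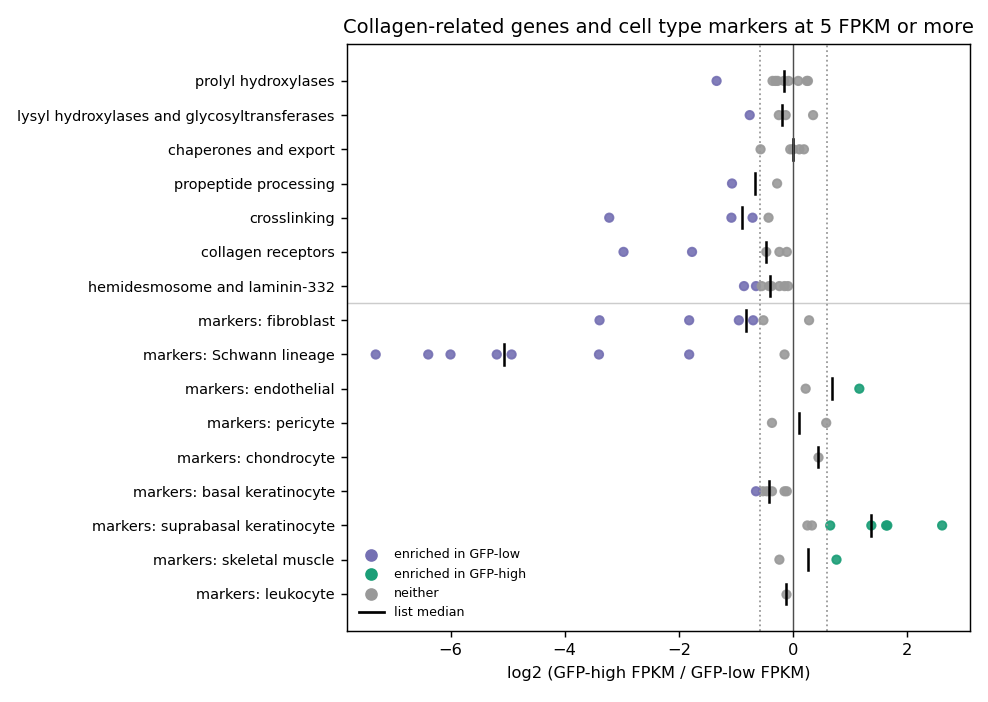
log2 of GFPhigh FPKM over GFPlow FPKM for genes at 5 FPKM or more in the collagen-related lists (top 7 rows) and the cell type marker lists (below the grey line), with GFPlow-enriched genes in violet, GFPhigh-enriched genes in green, list medians as bars and 1.5-fold as dotted lines. Enriched collagen-related genes all lie on the GFPlow side, Schwann lineage markers lie farthest to the left (median -5.06), and suprabasal keratinocyte markers lie to the right.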

How the data were processed

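RNA of SOX2-GFPhigh and SOX2-GFPlow cells was sequenced as 1 stranded library each (single-end reads of 50 nt). The authors trimmed the reads with Trimmomatic 0.36, mapped them to mm10 with GSNAP, obtained FPKM with Cufflinks 2.2.1 and deposited FPKM rounded to 2 decimals. The FPKM columns are named means, but the labels give 1 library per population, so each was read as 1 library. A deposited fold column, a signed ratio of the FPKM columns, was not used. Because FPKM is relative to the mapped reads of a library, a few abundant genes can shift all its other values.

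Of 21628 entries, 21 typed as other than protein-coding in GENCODE M21 were left out, and 17 had no number in at least 1 population. Ratios were computed without a pseudocount and none against 0. Enrichment needed 5 FPKM in the population called enriched, 1.5-fold over the other, and has no test behind it. Every collagen gene at 5 FPKM, and members of the collagen-related lists that passed the rule, were named, except where a gene is not reported here. Python 3.11.15 and pandas 2.3.3 were used. The code of the rule was run on simulated data with changes far past 1.5-fold and a lower FPKM minimum. That run checks the code and not calls near the limits. At most 4.87% of the 50-nt transcript windows of any collagen gene occurred in other genes.

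The labels state about 75000000 reads per sample. Depth was also sought from the steps of low FPKM, under 24 combinations of length correction and limits per library, and the median was taken. The best depths ranged from 24250000 to 33000000 reads (GFPhigh) and 28250000 to 37500000 (GFPlow), and an earlier estimate from these data was known, so depths and reads are approximate and no count test was run.

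Members and lists were chosen with earlier results of these data known. The counts by size of ratio, 3 ratios of chains (*Col4a5* to *Col4a6*, *Col6a3* to *Col6a1*, *Col3a1* to *Col1a1*), the Gly-X-Y runs, neighboring genes, the motif search, the sequences printed, the depth settings and the names of genes below 5 FPKM were added or chosen after values were seen. Alternatives tried were other minimums of FPKM, a 2-fold minimum, pseudocounts of 1 and 0.1, scaling to the FPKM sum (TPM) or by a median ratio, members from 1 FPKM or all above 0, and shares without the 10 highest entries.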

Additional observations from a re-analysis of the deposited data

How the results depend on the processing

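With no replicates, a value was taken to have moved when it changed by over 1.5 times. The count of 21 collagen genes enriched in GFPlow cells was within that limit under all 8 alternatives. It was 21 after scaling to TPM, scaling by the median ratio or adding 1 to each FPKM, 19 at a minimum of 10 FPKM (without *Col28a1* and *Col9a2*), 17 at 2-fold (without *Col16a1*, *Col18a1*, *Col4a6* and *Col7a1*) and 15 at 5 FPKM in each population (without *Col11a1*, *Col27a1*, *Col28a1*, *Col5a3*, *Col9a2* and *Col9a3*, which are under 5 FPKM in GFPhigh cells). The count of 0 enriched in GFPhigh cells became 2 at a minimum of 1 FPKM and 5 with no minimum. Of the collagen-related genes, 10 were enriched in GFPlow cells, against 6 at 5 FPKM in each population, 6 at 2-fold and 17 with no minimum, and 0 in GFPhigh cells, against 3 with no minimum, where genes listed at 0 in the other population are counted too. The other network median of -1.27, a single gene, reversed to 0.07 over genes at 1 FPKM or more, and the beaded filament median of -0.99 reversed to 0.06 over all members above 0, since further low genes enter. The other 46 class medians under an alternative, the 6 of the whole family, the shares and the ratios of 5 pairs of chains moved by less, as did 158 of 172 single-gene ratios. The other 14 moved without changing direction. No alternative took a median over genes at 5 FPKM in each population. The 3 pairs of chains added later were not run under an alternative. TPM lowered every log2(GFPhigh/GFPlow) by 0.10. No paired analysis was possible because each population has 1 library without a replicate number, and for the same reason no library could be left out. Genes near 3 reads are limited by depth.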
